A study of Mus musculus with 32 samples.

Results

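Expression of 10 genes of the TGF-beta pathway was followed across tissues in CD8+ Thy1.1+ Pmel T cells by bulk RNA sequencing. The genes were the ligand Tgfb1, the receptors Tgfbr1 and Tgfbr2, the signal transducers Smad2 and Smad3, and 5 genes that damp the signal, Smad7, Ski, Skil, Tgif1 and Spsb1. They were taken by symbol from a table of 46517 genes, all 10 were found there, and all 10 passed the filter of 1 TPM in 4 libraries that left 19738 genes to test.

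The transgenic T cell receptor of Pmel cells recognises a melanocyte antigen. The mice were C57BL/6, and all 32 samples, the naive ones included, have the label of melanoma-associated vitiligo and an age of 16 weeks. There were 8 groups of 4 libraries. The first 3 were naive Pmel cells (source spleen), Pmel cells of the lymph node draining the tumor at day 12, and lymph node memory cells. Liver, lung, skin, tumor and spleen gave the remaining 5. Cells of the memory lymph node, of skin, of lung and of liver belong to the time point 45 days after surgery, and for naive, spleen and tumor cells the labels used here give no time. Nothing in the labels says that the 4 samples of a group came from separate animals, so a p-value here reflects the spread among these samples, which may be technical.

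TGF-beta is released from a latent complex and binds TGFBR2, which recruits and phosphorylates TGFBR1. The active receptor phosphorylates SMAD2 and SMAD3, which enter the nucleus with SMAD4 and switch genes on or off. Several of the genes switched on in this way close a negative feedback loop: SMAD7 blocks and degrades the receptor, SKI and its relative SKIL (SnoN) hold Smad complexes in a repressed state, TGIF1 is a homeodomain corepressor of Smads, and SPSB1 is a ubiquitin ligase adaptor that targets TGFBR2. In CD8 T cells TGF-beta is known for inducing CD103, the integrin chain encoded by Itgae, and for its part in the formation of tissue-resident memory cells in epithelia.

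The values are TPM, transcript shares per length scaled to the same sum in each library, so levels can be compared between genes, but no read counts were used and the depth is unknown. Changes are differences of log2(TPM + 1) with the standard error (SE) of a limma fit over all 8 groups, which understates the change of low genes, and other errors are standard deviations (SD, n = 4). The T cell genes Cd3e, Cd8a, Cd8b1 and Thy1 were above 0 in all 32 libraries. The summed level of 16 T cell identity genes ranged from 3475 TPM in liver replicate 4 to 44394 TPM in a naive library. In 6 libraries it was under 0.5 of the median: spleen, skin and tumor replicate 4 and liver replicates 2, 3 and 4. The residual SD over all tested genes was 0.303 log2 units in the day 12 lymph node and 0.387 in naive cells, against 1.33 in liver. In bulk samples, fewer cells of a type and less RNA per cell cannot be told apart.

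Levels of 8 of the 10 genes differed among the 8 groups by limma's moderated F test at an adjusted p under 0.05, where 46.9% of all tested genes did. The exceptions were Tgfb1 (adjusted p = 0.0594) and Smad2 (adjusted p = 0.180). The smallest adjusted p-values belonged to Spsb1 (2.99e-07), Smad7 (9.42e-07) and Tgif1 (1.10e-06), 3 of the genes that damp the signal. Skin held the highest mean level of Tgfb1 and of all 5 damping genes, naive cells held that of Tgfbr1, Tgfbr2 and Smad2, and liver that of Smad3.

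**Figure D1:**
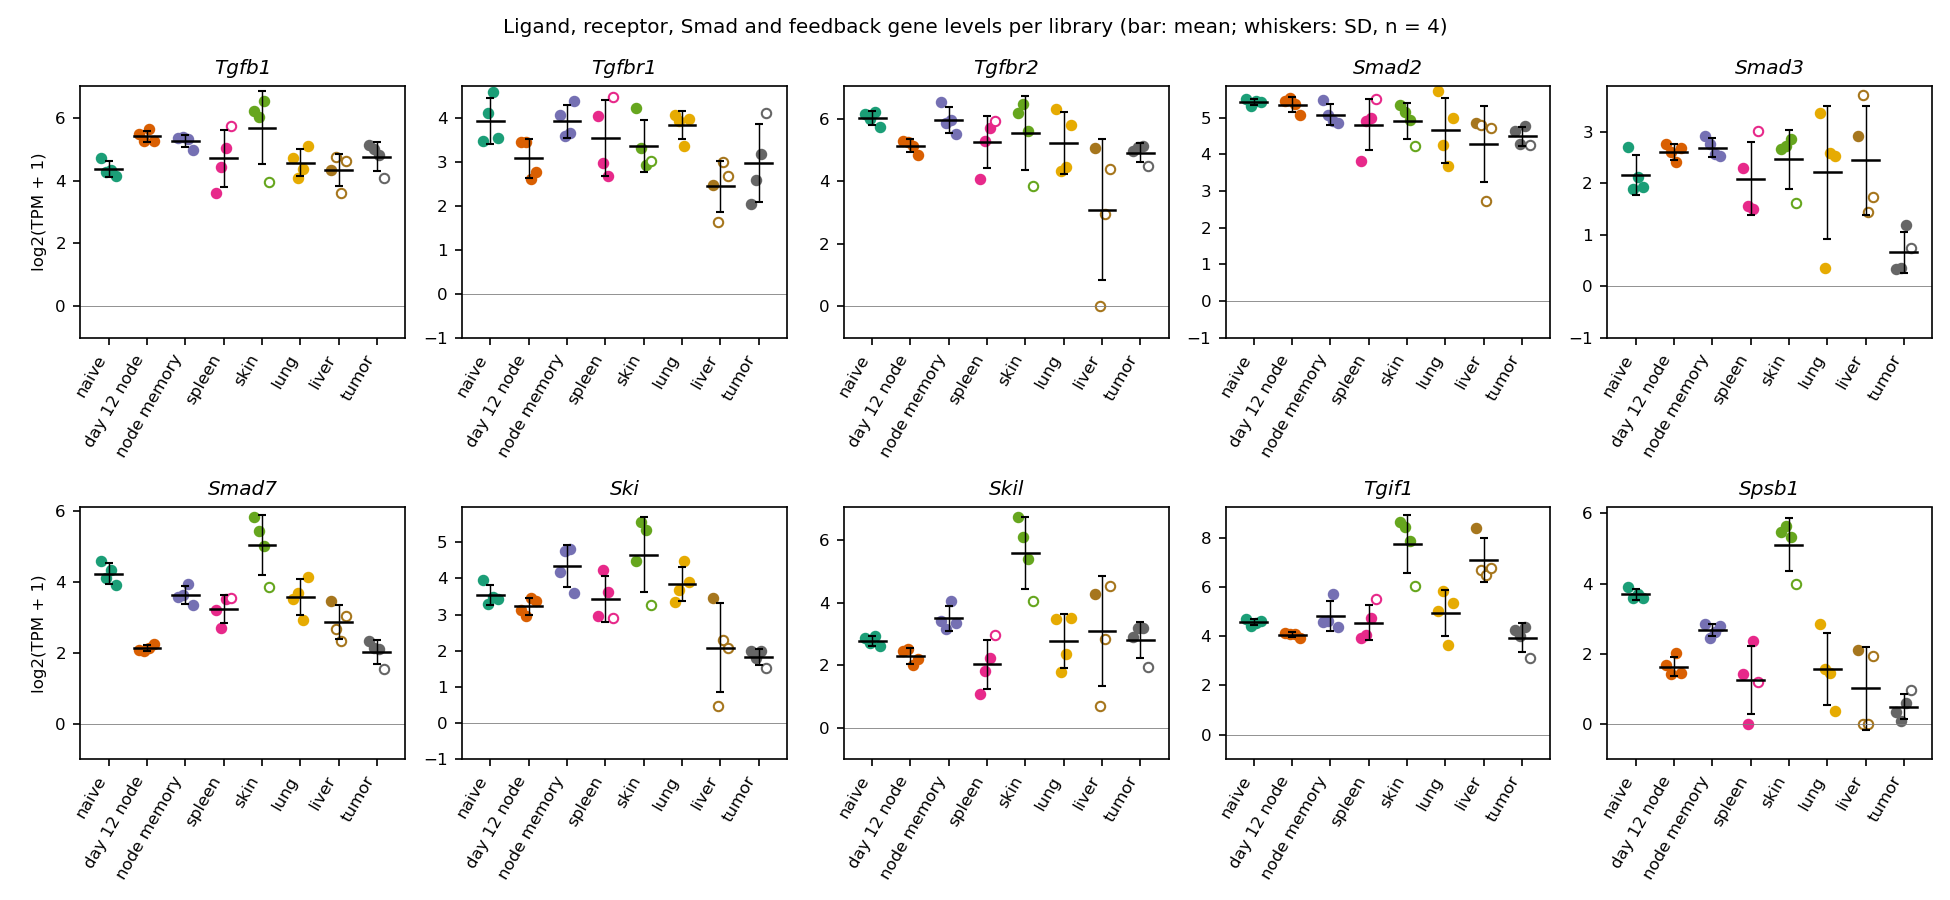
Level of each gene, as log2(TPM + 1), in the 4 libraries of each group, with the group mean as a bar and the SD as whiskers; open circles are the 6 libraries with a low summed level of T cell genes. Skil, Tgif1 and Spsb1 stand high in skin, where replicate 4 is the lowest library, and Tgif1 is also high in liver, where its 4 libraries lie between 88.0 and 338.8 TPM.

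The count of genes that passed the test differed widely between the 9 comparisons. Against naive cells, 2 of the 10 genes passed in the day 12 lymph node, both lower (11.1% of all tested genes passed there, 5.14% lower), and 1 in spleen, lower (6.08%, and 2.46% lower). Against spleen, 4 passed in skin, all higher (7.68%, and 4.33% higher). In liver 2 passed, 1 in each direction (13.6%, with 2.45% higher and 11.1% lower), and in tumor 2, both lower (6.25%, and 2.82% lower). Against spleen, 0 passed in lymph node memory cells (background 0.481%) and 0 in lung (background 0.111%) by limma, with 2 and 0 genes at an unadjusted p under 0.05. Skin against lymph node memory gave 4 genes, all higher (7.48%, and 3.18% higher), and tumor against the day 12 lymph node gave 1, lower (6.97%, and 2.42% lower). Of the 16 calls over the 9 comparisons, 14 fell on Smad7, Ski, Skil, Tgif1 and Spsb1, 1 on Tgfbr2 and 1 on Smad3. Skin gave 4 of these calls against spleen and 4 against lymph node memory. Both times the genes were Smad7, Skil, Tgif1 and Spsb1, in the same skin libraries. The number of genes whose groups did not overlap was 7 in the day 12 lymph node against naive cells (51.3% of all tested genes), 5 in tumor against the day 12 lymph node (42.3%) and 2 in spleen against naive cells (19.6%). Against spleen it was 4 in skin (9.09%), 1 in liver (7.17%), 3 in tumor (14.7%), 2 in lymph node memory (5.39%) and 0 in lung (1.82%), and for skin against lymph node memory it was 2 (20.6%). Several comparisons share the spleen, naive, skin or tumor libraries, so their calls are not independent of each other.

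**Figure D2:**
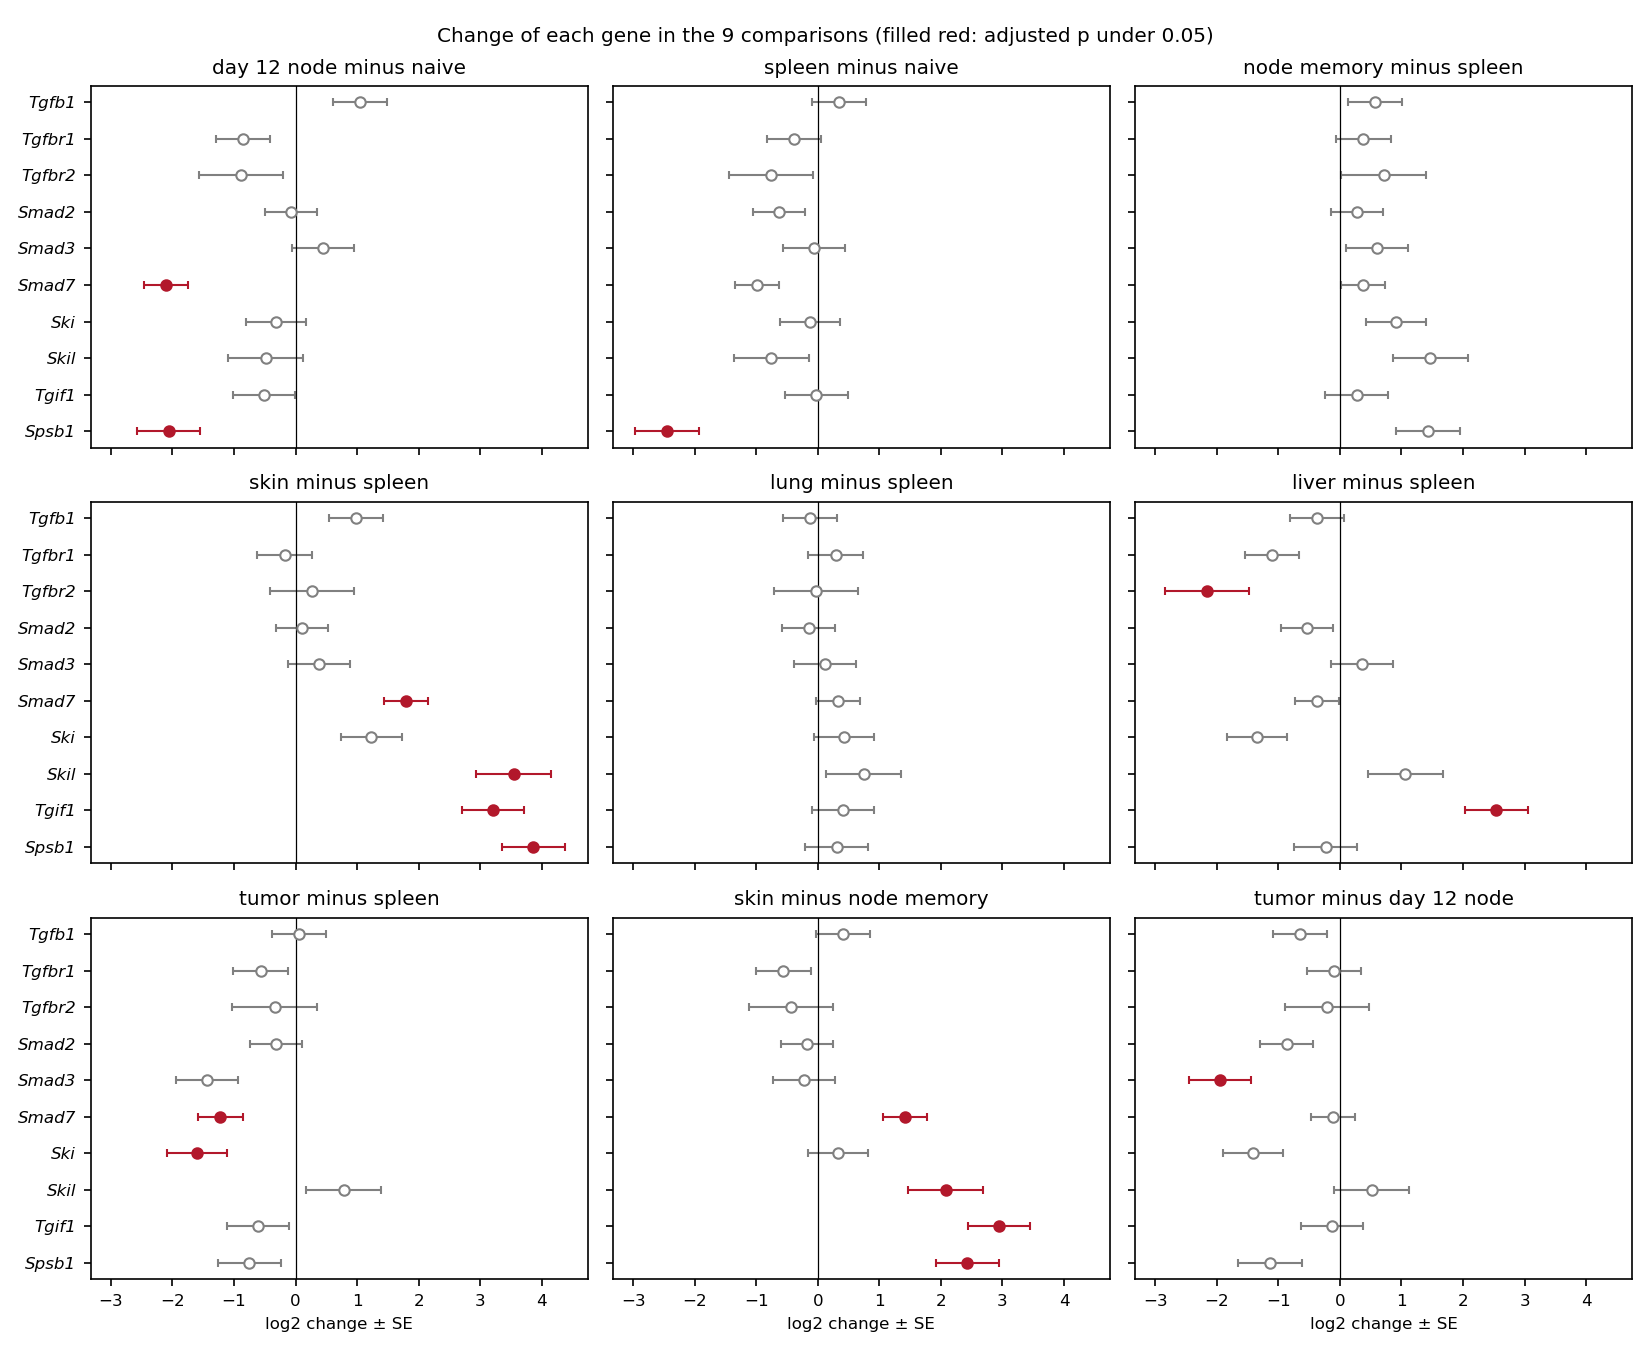
Change of each of the 10 genes in the 9 comparisons, on the log2(TPM + 1) scale with its SE; filled red points passed at an adjusted p under 0.05. Smad7, Skil, Tgif1 and Spsb1 lie far to the right in skin against spleen, at 1.80 to 3.86, while the points of lung against spleen all lie between -0.15 and 0.75.

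Tgfb1, the ligand that T cells also make themselves, was measured at 73.3, 63.8, 92.99 and 14.7 TPM in skin replicates 1 to 4 and at 11.2, 20.6, 32 and 53.1 TPM in spleen. Skin replicates 1 to 3 lay above all 4 spleen libraries, and replicate 4 lay among them. The difference was 0.98 ± 0.44 (adjusted p = 0.206), and without skin replicate 4, whose T cell genes summed to 5630 TPM against 25521 to 34813 in the others, it was 1.55 (adjusted p = 0.00952). In naive cells Tgfb1 (chr7:25687002-25705077, GRCm38.p6) lay at 16.6 to 25.5 TPM and in the day 12 lymph node at 37.3 to 49.01 TPM, with no overlap. That change of 1.04 ± 0.44 missed the threshold (adjusted p = 0.138) in the fit with 1 spread for all groups. It passed when each group had its own weight (adjusted p = 1.17e-06), a fit in which 56.7% of all tested genes passed. Lymph node memory held 30.6 to 41.3 TPM, tumor 16.1 to 34.4, lung 16.1 to 33.2 and liver 11.2 to 25.95. Every group overlapped its neighbour in the order of the means, while groups farther apart in it, such as lymph node memory and liver, did not all overlap.

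The receptor genes had their highest means in naive and lymph node memory cells and their lowest in liver. Tgfbr2, the ligand-binding chain (chr9:116087695-116175363), lay at 69.4, 62.6, 72.6 and 51.7 TPM in the naive libraries and at 90.7, 57.01, 61 and 44.8 TPM in lymph node memory. In liver it was 32.1, 0, 6.69 and 19.8 TPM, with replicate 2 listed at 0, against 15.9, 38.3, 51.1 and 59.96 TPM in spleen. Liver replicate 1 lay among the spleen libraries. Tgfbr2 fell by 2.16 ± 0.68 in liver (adjusted p = 0.0364), where the median of all tested genes was -0.53. This call rests on few libraries: without liver replicate 2 the change was -1.13 (adjusted p = 0.199), and without the 6 libraries of low T cell level, it was 0.02 (adjusted p = 1.0). That fit has 1 liver library, which is taken to vary like the other groups. It also missed the threshold without spleen replicate 2, 3 or 4 or liver replicate 3, with adjusted p-values between 0.0573 and 0.0899, and without a filter, with only the 2 groups fitted, with weights per group or with T cell level as a covariate (0.0755 to 0.455).

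In the day 12 lymph node Tgfbr2 was 38.2, 37, 34.2 and 27.4 TPM, below all naive libraries, a change of -0.89 ± 0.68 (adjusted p = 0.509). Tgfbr1, the signalling chain (chr4:47353222-47414926), was also lower there without overlap, at 5.14 to 10.1 against 10.2 to 23.1 TPM (-0.85 ± 0.44, adjusted p = 0.256). Groups without overlap were common among all tested genes in this comparison. Tumor held 21.4 to 33.6 TPM of Tgfbr2 and 3.14 to 16.4 TPM of Tgfbr1. In skin Tgfbr2 was 71.3, 88.4, 47.6 and 13.3 TPM and Tgfbr1 17.8, 9.01, 6.62 and 7.16 TPM, both overlapping the spleen libraries, and neither receptor passed against spleen (changes of 0.27 ± 0.68 and -0.17 ± 0.44). In lung the corresponding ranges were 18.96 to 78.3 and 9.34 to 15.8 TPM. In all 8 groups the mean level of Tgfbr2 was above that of Tgfbr1.

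The receptor-activated Smads differed in level and in pattern. Smad2 was the more abundant, with group means from 21.5 ± 10.7 TPM in liver to 42.4 ± 2.49 TPM in naive cells, and it passed in none of the 9 comparisons. Its levels in tumor, 24.1, 18.7, 26.5 and 18.1 TPM, lay below all 4 libraries of the day 12 lymph node, 43.1, 45.7, 40.3 and 32.5 TPM (-0.86 ± 0.43, adjusted p = 0.235). Its naive and day 12 lymph node libraries overlapped (38.98 to 44.9 and 32.5 to 45.7 TPM).

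Smad3, which binds DNA directly (chr9:63646766-63757994), was low throughout and lowest in tumor. Tumor libraries held 0.250, 0.280, 1.27 and 0.680 TPM, day 12 lymph node libraries 5.75, 5.04, 4.28 and 5.37 TPM and spleen libraries 3.91, 1.92, 1.83 and 7.03 TPM. All 4 tumor libraries lay below all libraries of both other groups. Smad3 fell by 1.95 ± 0.50 in tumor against the day 12 lymph node (adjusted p = 0.0149), or 0.0520 without tumor replicate 2. Against spleen the change was -1.43 ± 0.50 (adjusted p = 0.0915), which passed with weights per group (0.0423) and after quantile normalization (0.0470). In the other groups Smad3 was at 2.69 to 5.52 TPM (naive), 4.73 to 6.57 (lymph node memory), 2.06 to 6.19 (skin), 0.270 to 9.25 (lung) and 1.70 to 12.1 (liver). Smad4, the shared partner of both, passed in none of the 9 comparisons, with changes between -1.51 (liver against spleen) and 0.39 (spleen against naive).

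Smad7, the inhibitory Smad, was high in naive cells, low in the day 12 lymph node and in tumor, and highest in skin. It measured 23.1, 16.2, 19.2 and 14 TPM in the naive libraries and 3.25, 3.16, 3.36 and 3.78 TPM in the day 12 lymph node. The lowest naive library was above the highest lymph node library. Smad7 fell by 2.10 ± 0.36 in that comparison (adjusted p = 0.000101), and the call was kept under all 17 alternative settings. In spleen it was 8.33, 5.46, 10.4 and 10.8 TPM, below all naive libraries, a change of -0.99 ± 0.36 (adjusted p = 0.109) that passed with weights per group (0.0370) and without the libraries of low T cell level (0.00734).

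In skin Smad7 measured 56, 42.4, 31.4 and 13.7 TPM. All 4 skin libraries exceeded the spleen libraries, and replicate 4 lay within the range of the lymph node memory libraries, 10.9, 11.3, 14.5 and 9.18 TPM. Smad7 rose by 1.80 ± 0.36 against spleen (adjusted p = 0.00128) and by 1.42 ± 0.36 against lymph node memory (adjusted p = 0.0133, or 0.0686 without skin replicate 1). With only the 2 groups of each comparison fitted, neither call was kept, with adjusted p-values of 0.114 against spleen and 0.0791 against lymph node memory. Lung (6.63 to 16.8 TPM) and liver (4.07 to 9.95 TPM) overlapped spleen. Tumor held 4.0, 3.42, 3.28 and 1.89 TPM, below all spleen libraries, and Smad7 fell by 1.22 ± 0.36 there (adjusted p = 0.0368). The tumor call was lost in 6 of the 8 fits that left out 1 library, namely without spleen replicate 1, 3 or 4 or tumor replicate 2, 3 or 4, with adjusted p-values between 0.0619 and 0.139, and with only the 2 groups fitted (0.0809). Tumor and the day 12 lymph node, both low, overlapped in Smad7 (change -0.11 ± 0.36).

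The corepressors Ski and Skil are close relatives with unlike patterns. Ski (chr4:155154075-155222535) was lowest in tumor at 2.96, 2.47, 3.01 and 1.85 TPM, below all spleen libraries at 6.74, 17.99, 11.3 and 6.45 TPM. It fell by 1.60 ± 0.49 there (adjusted p = 0.0450). That call was also lost in 6 of the 8 fits without 1 library (spleen replicate 2 or 3, or any tumor replicate), with adjusted p-values between 0.0727 and 0.159, and without a filter (0.0713) or with a pseudocount of 0.1 (0.0741). Against the day 12 lymph node, 7.68, 6.78, 9.99 and 9.43 TPM, the tumor change was -1.41 ± 0.49 without overlap (adjusted p = 0.0779).

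Ski in skin was 21.2, 46.7, 39.2 and 8.63 TPM, with replicates 1 to 3 above all spleen libraries and replicate 4 among them (1.23 ± 0.49, adjusted p = 0.137). Without skin replicate 4 the change was 1.70 (adjusted p = 0.0275). Lymph node memory held 11.1 to 27.3 TPM of Ski, lung 9.23 to 21.4, naive cells 8.87 to 14.5 and liver 0.390 to 10.1. In liver replicate 1 was the highest library, and the change against spleen, -1.35 ± 0.49 (adjusted p = 0.0597), was -1.81 without it (adjusted p = 0.00664).

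Skil (chr3:31095058-31122923) was a low gene in most groups and an abundant one in skin. It measured 105, 67.6, 41.2 and 15.5 TPM in skin, 1.13, 2.55, 3.66 and 6.73 TPM in spleen and 9.60, 7.87, 15.7 and 9.20 TPM in lymph node memory. Every skin library was above every spleen library, and skin replicate 4 lay just below the highest lymph node memory library. Skil rose by 3.55 ± 0.61 against spleen (adjusted p = 0.000215), a call kept under all 17 alternatives. Against lymph node memory it rose by 2.08 ± 0.61 (adjusted p = 0.0326), and that call was lost without lymph node memory replicate 1, 2 or 4 or skin replicate 1 or 2, with adjusted p-values between 0.0669 and 0.123. It was also lost without a filter, with a pseudocount of 0.1 or with only the 2 groups fitted (0.0564 to 0.0982).

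Lymph node memory lay above spleen in Skil without overlap, by 1.47 ± 0.61 (adjusted p = 0.408). Without the libraries of low T cell level, which removes spleen replicate 4, the change was 1.78 (adjusted p = 0.00600). Liver spread from 0.630 to 22.3 TPM, with replicates 1 and 4 above all spleen libraries and replicate 2 the lowest (1.06 ± 0.61, adjusted p = 0.219). Without liver replicate 2 the change was 1.85 (adjusted p = 0.0325). Naive, day 12 lymph node, lung and tumor libraries together lay between 2.44 and 10.4 TPM.

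Tgif1 (chr17:70844205-70853532) was the most abundant of the 10 genes in skin and liver. Its promoter and that of Spsb1 are shown because these are the genes with the largest changes against lymph node memory in skin and with an entry in the RefSeq promoter table (GRCm38.p6, the build that mm10 names). Each run is the 250 bases before the gene start on the minus strand, at chr17:70853533-70853782 for Tgif1 and chr4:149955007-149955256 for Spsb1, with any match to CAGAC or its reverse complement, the core of the Smad binding element, in capitals.
Tgif1 promoter: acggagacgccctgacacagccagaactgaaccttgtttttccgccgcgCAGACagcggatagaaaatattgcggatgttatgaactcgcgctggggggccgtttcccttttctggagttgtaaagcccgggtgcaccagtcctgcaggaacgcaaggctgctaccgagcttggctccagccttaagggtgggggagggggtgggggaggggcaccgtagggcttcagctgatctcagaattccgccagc
Spsb1 promoter: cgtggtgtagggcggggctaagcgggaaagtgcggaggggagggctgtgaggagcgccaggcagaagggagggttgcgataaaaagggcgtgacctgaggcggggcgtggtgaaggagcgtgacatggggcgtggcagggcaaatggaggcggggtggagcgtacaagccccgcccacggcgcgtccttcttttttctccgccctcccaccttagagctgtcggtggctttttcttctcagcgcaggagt
The Tgif1 window holds 1 CAGAC, starting 201 bases before the gene start, and the Spsb1 window holds none. RefSeq also gives other Tgif1 starts, whose windows are not printed and differ. The window at chr17:70851735-70851984 holds 2 CAGAC and that at chr17:70849791-70850040 holds 1. Those at chr17:70851211-70851460 and chr17:70846778-70847027 hold none. Both strands were searched, and 42.2% of 32851 windows of the same length in the table hold this core. The full palindrome GTCTAGAC (0.2% of windows), the AP-1 motif TGANTCA (6.7%) and the CRE motif TGACGTCA (1.5%) are in neither run. Such a match is a run of letters, and no binding was measured here. Of the 10 genes, 7 had a promoter entry that was used, and at the gene start 2 of these 7, Tgif1 and Tgfbr2, hold CAGAC.

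In skin Tgif1 measured 401, 349, 237 and 65.8 TPM, and in liver 339, 103, 87.96 and 109.9 TPM. The spleen libraries held 14.3, 15.5, 25.7 and 44.1 TPM and the lymph node memory libraries 22.8, 23.9, 50.97 and 19.9 TPM. Every skin library and every liver library was above both. Tgif1 rose by 3.21 ± 0.51 in skin against spleen (adjusted p = 7.06e-05) and by 2.94 ± 0.51 against lymph node memory (adjusted p = 0.000354), and both calls were kept under all 17 alternatives.

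In liver Tgif1 rose by 2.54 ± 0.51 against spleen (adjusted p = 0.00202), the highest library being replicate 1, which also had the highest T cell identity sum of the liver libraries. Without the libraries of low T cell level it is the 1 liver library left, and the change was 4.17 (adjusted p = 7.00e-05). The liver call was lost when only the 2 groups were fitted or each group had its own weight, with an adjusted p of up to 0.256; in the weighted fit 0.932% of all tested genes passed. Lung held 31.2, 55.5, 11.6 and 40.3 TPM and overlapped spleen (0.41 ± 0.51, adjusted p = 0.988). The day 12 lymph node (14.2 to 16.7 TPM) lay below naive cells (20.4 to 25.2 TPM) by -0.51 ± 0.51 without overlap (adjusted p = 0.643), and tumor held 7.54 to 19.7 TPM.

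Spsb1 (chr4:149896283-149955006) was highest in skin and next in naive cells, and low in most other groups. Naive libraries held 13.96, 11.01, 12 and 11.03 TPM, day 12 lymph node libraries 2.19, 1.66, 3.04 and 1.71 TPM and spleen libraries 1.70, 0, 4.12 and 1.30 TPM, with spleen replicate 2 listed at 0. The naive libraries lay above all libraries of both other groups. Spsb1 fell by 2.06 ± 0.51 in the day 12 lymph node (adjusted p = 0.00663) and by 2.45 ± 0.51 in spleen (adjusted p = 0.00261). With a pseudocount of 0.1 the first of these no longer passed (-2.46, adjusted p = 0.167). Markers of other cells moved with both. In spleen against naive cells 10 of 13 myeloid markers (789 to 8772 against 154 to 184 TPM) and 8 of 10 B cell markers (1526 to 18098 against 851 to 1005 TPM) passed higher. In the day 12 lymph node 4 of 6 erythroid markers tested passed lower, from sums of 338 to 942 TPM in naive cells, and 1 myeloid and 1 B cell marker higher. The B cell sum as a whole was lower there, at 212 to 279.5 against 851 to 1005 TPM, without overlap. Stromal and endothelial sums were also lower without overlap, at 28.0 to 39.0 against 59.3 to 85.1 TPM, though 0 of 7 markers tested passed. The part of all these markers in these changes was not tested.

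Skin held 43.5, 49.02, 39.2 and 14.99 TPM of Spsb1 and lymph node memory 6.18, 4.48, 5.15 and 5.97 TPM. Skin stood above every other group without overlap, replicate 4 included. Spsb1 rose by 3.86 ± 0.51 against spleen (adjusted p = 5.63e-06) and by 2.43 ± 0.51 against lymph node memory (adjusted p = 0.00291), the latter with an adjusted p of 0.161 at a pseudocount of 0.1. Lymph node memory was above spleen without overlap, by 1.43 ± 0.51 (adjusted p = 0.285). Tumor was at 0.270, 0.070, 0.50 and 0.950 TPM, lung at 6.24, 1.96, 1.71 and 0.280 and liver at 3.35, 0, 0 and 2.83. All 4 liver libraries, where Tgif1 rose, held Spsb1 within the spleen range, 2 of them listed at 0.

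Immediate early and heat shock genes, known to respond quickly to stimulation and to tissue dissociation, and markers of other cells moved with these differences. In skin the 18 immediate early genes, such as Fos, Jun and Egr1, summed to 21382, 19836, 14371 and 5394 TPM in replicates 1 to 4, against 516 to 1737 TPM in spleen and 725 to 1868 TPM in lymph node memory. All 18 passed higher in skin against spleen and 15 of 18 against lymph node memory. In liver they summed to 5640 to 10419 TPM and 16 of 18 passed higher, while in tumor they summed to 375 to 699 TPM and in lung to 1208 to 2237 TPM. Skin replicate 4, which had the lowest immediate early sum of the skin libraries, also had the lowest level of Smad7, Ski, Skil, Tgif1 and Spsb1 among them. Of 8 heat shock genes, 5 passed higher in skin against spleen. Per the labels, skin and liver were digested with collagenase, lung with Liberase, and lymph nodes were dissociated mechanically, so tissue and dissociation cannot be told apart. The part of the immediate early and heat shock genes in the results was not tested.

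Liver and skin shared the high immediate early sum, but not the levels of all 4 genes. Liver libraries had 4.07 to 9.95 TPM of Smad7 and at most 3.35 TPM of Spsb1. Naive libraries, with immediate early sums of 655 to 770 TPM, held more Smad7 and Spsb1 than liver libraries did, without overlap. Liver replicates 2, 3 and 4 had T cell identity sums of only 8309, 8512 and 3475 TPM. The part of the T cell level and of the immediate early genes in these differences was not tested.

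**Figure D3:**
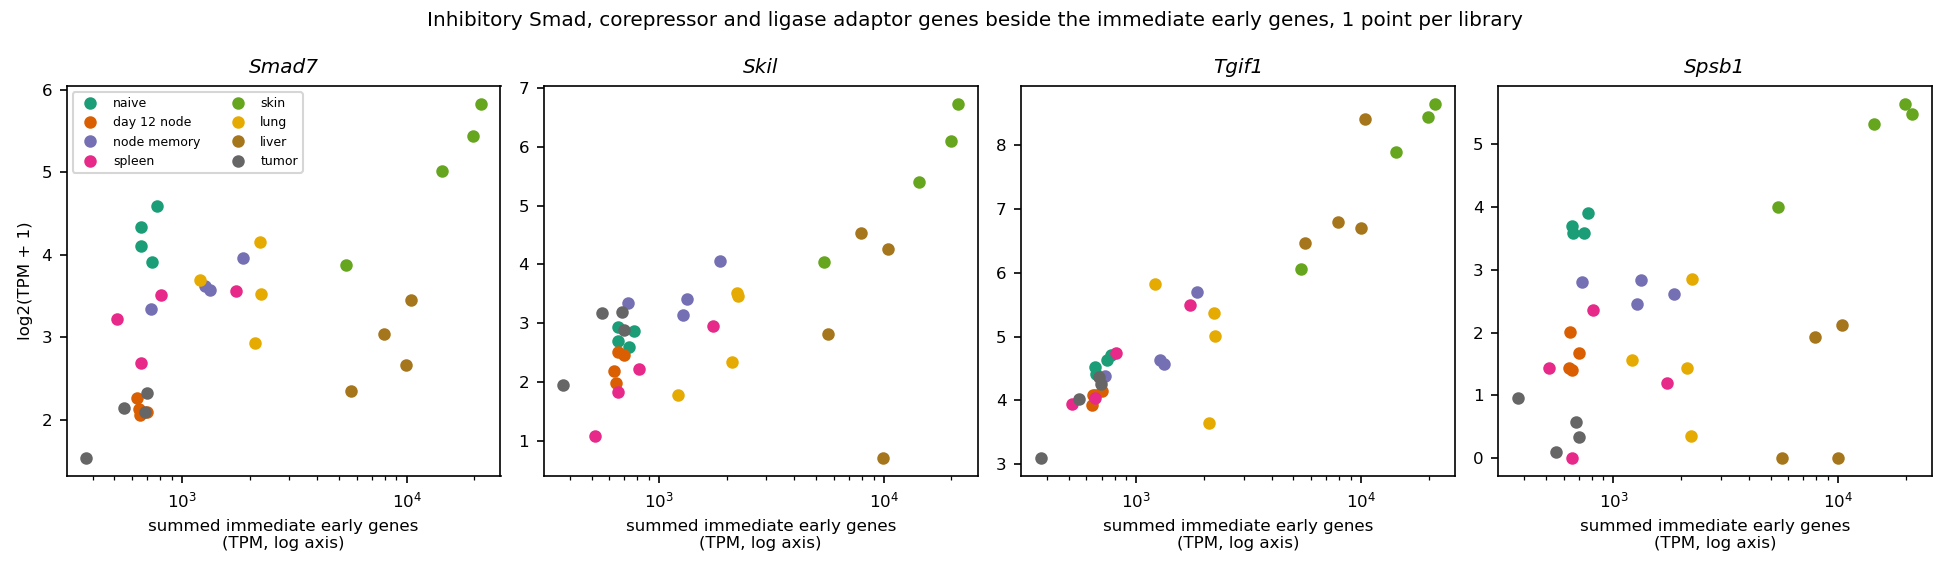
Level of Smad7, Skil, Tgif1 and Spsb1, as log2(TPM + 1), against the summed TPM of 18 immediate early genes on a log axis, with 1 point per library coloured by group. The skin and liver libraries lie to the right of all others in each panel; for Tgif1 both are high, whereas for Spsb1 the skin libraries are at 14.99 to 49.02 TPM and the liver libraries at 0 to 3.35 TPM.

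Keratinocyte genes were also present in the skin libraries. The 10 marker genes summed to 160 to 3530 TPM in skin and to 21.7 to 25.7 TPM in spleen, where Krt1 was listed at 0 in all 4 libraries, and 10 of 10 passed higher in skin. Skin replicate 4 had the highest keratinocyte sum and replicate 3 the lowest. Replicate 4 also had the lowest T cell identity sum of the skin libraries (5630 TPM). Of 7 stromal and endothelial markers tested, 5 passed higher in skin, with sums of 124 to 535 TPM against 14.3 to 58.9 TPM. B cell markers summed to 26.6 to 129 TPM in skin and 1526 to 18098 TPM in spleen, with 9 of 10 lower. Against lymph node memory, where keratinocyte sums were 19.0 to 108 TPM and B cell sums 419 to 4985 TPM, 10 of 10 keratinocyte and 5 of 7 stromal markers were higher in skin and 7 of 10 B cell markers lower. In tumor, the 8 melanocyte and melanoma markers summed to 420 to 973 TPM against 7.3 to 21.1 TPM in spleen, with 6 of 8 higher, and 8 of 10 B cell markers were lower. Against the day 12 lymph node, 7 of 8 melanocyte and 5 of 6 erythroid markers tested were higher in tumor, the erythroid sums being 3609 to 12467 TPM against 0.7 to 2.4 TPM. In liver, 7 of 8 hepatocyte markers tested were higher (756 to 29491 TPM against 46.8 to 352 TPM) and myeloid markers summed to 1727 to 15592 TPM, with 1 of 13 higher. Also in liver, 4 of 6 erythroid markers tested were higher (557 to 91052 TPM against 72.6 to 1205 TPM), and 7 of 10 B cell markers and 3 of 16 T cell identity genes were lower. The part of these genes in the differences of the 10 pathway genes, and of the further pathway and target genes below, was not tested.

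The rest of the pathway was read from a list of 56 further genes, of which 45 passed the filter. Skin against spleen had 9 genes higher and 1 lower (4.33% and 3.34% of all tested genes), with a list median of 0.56 against -0.12 over all tested genes. The 9 included 4 that inhibit the pathway or related ones: Pmepa1 (2.84 ± 0.84), which binds receptor-activated Smads, the decoy receptor Bambi (2.80 ± 0.49), Ldlrad4 (2.79 ± 0.45), a relative of Pmepa1, and the activin antagonist Fst (2.43 ± 0.38). Pmepa1 ranged from 3.69 to 91.2 TPM in skin and from 1.49 to 21.8 TPM in spleen, with overlap. Bambi was at 5.33 to 13.4 against 0.080 to 1.26 TPM and Ldlrad4 at 7.91 to 30.8 against 0.740 to 4.22 TPM, both without overlap. The latency genes Ltbp3 (1.04 ± 0.24) and Ltbp4 (1.93 ± 0.53), the proprotein convertase Furin (1.12 ± 0.34) and the receptors Acvr2a (1.93 ± 0.47) and Bmpr1a (1.14 ± 0.33) rose too. Nrros, which anchors latent TGF-beta on myeloid cells, fell by 1.75 ± 0.49. Against lymph node memory, 5 rose (Bambi, Fst, Ldlrad4, Bmp2 and Ltbp3) and Gdf11 fell by 1.44 ± 0.31 (3.18% and 4.31% of all tested genes).

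Some receptors and ubiquitin ligases of the same list were lower in the day 12 lymph node than in naive cells. Of 45 genes, 6 were lower and 2 higher there (5.14% and 5.95% of all tested genes), with a list median of -0.30 against -0.19 over all tested genes. The receptors Acvrl1 (-3.57 ± 0.76), from 14.6 to 18.2 TPM in naive cells to 0.250 to 0.580 TPM, Eng (-2.23 ± 0.53) and Acvr1b (-1.36 ± 0.29) were among them. So were the ubiquitin ligases Peli1 (-2.66 ± 0.52), Nedd4l (-1.90 ± 0.30) and Smurf2 (-1.21 ± 0.31), of which Smurf2 is a partner of Smad7 in receptor turnover. The ligand Bmp7 (2.75 ± 0.34) and the TGF-beta inducible Klf10 (2.13 ± 0.65) rose. In spleen against naive cells 4 fell (Smad1, Peli1, Nedd4l and Acvr1b) and 0 rose (2.46% and 3.62% of all tested genes; medians -0.10 and -0.05).

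In tumor against spleen, Itgav, the integrin chain that pairs to activate latent TGF-beta, rose by 1.48 ± 0.40 and was at 35.5 to 44.3 TPM against 7.22 to 23.9 TPM. The co-receptor Tgfbr3 fell by 1.69 ± 0.45, to 0.340 to 0.910 TPM from 2.78 to 5.80 TPM, and the coactivator genes Ep300 (-1.13 ± 0.32) and Crebbp (-1.04 ± 0.32) fell (list median -0.02, all genes -0.03; 3.42% of all tested genes were higher and 2.82% lower). Against the day 12 lymph node Itgav was again higher (1.98 ± 0.40), and Tgfbr3 (-1.75 ± 0.45) and Bmp7 (-1.52 ± 0.34) lower (medians 0.21 and 0.03; 4.55% and 2.42% of all tested genes). In liver Bambi rose by 1.45 ± 0.49, with Trim33 (-1.44 ± 0.37) and Crebbp (-1.26 ± 0.32) lower (medians -0.22 and -0.53; 2.45% and 11.1% of all tested genes). For lymph node memory and lung against spleen, 0 of 45 passed by limma, with 6 and 4 at an unadjusted p under 0.05 (medians 0.25 and 0.16, against 0.17 and 0.04 over all tested genes).

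Genes reported to be raised by TGF-beta in T cells did not move as 1 block. Of 11 tested, 6 rose and 0 fell in skin against spleen (4.33% and 3.34% of all tested genes; median 2.37, all genes -0.12): the adhesion genes Cdh1 (4.97 ± 0.55) and Itgae (2.37 ± 0.61), Rgs16 (4.24 ± 0.74), Id1 (3.09 ± 0.91), Pmepa1 and Ldlrad4. The last pair belongs to the inhibitor list as well. Itgae, the CD103 chain, was at 107 to 575 TPM in skin, 176 to 478 TPM in lymph node memory and 38.3 to 141 TPM in spleen. In tumor it was at 0.180 to 1.60 TPM, and it fell by 5.16 ± 0.61 against spleen and by 5.37 ± 0.61 against the day 12 lymph node, where it was at 53.7 to 80.5 TPM. Rgs16 rose in the same tumor comparisons (5.78 ± 0.74 and 4.13 ± 0.74). In liver Id1 alone of the 11 passed (4.73 ± 0.91), with libraries from 2.61 to 266 TPM, where 2.45% of all tested genes were higher. Cdh1 was the 1 gene of the list that rose in lymph node memory against spleen (2.59 ± 0.55; 0.36% of all tested genes were higher), and 0 passed in lung by limma, with 2 at an unadjusted p under 0.05. Against naive cells 3 of 11 rose in the day 12 lymph node (Nrp1, Rgs16 and Klf10; 5.95% of all tested genes) and 3 in spleen (Itga1, Nrp1 and Cd101; 3.62%).

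Of 8 genes reported to be lowered by TGF-beta, 4 fell and 1 rose in skin against spleen (3.34% and 4.33% of all tested genes; median -2.09, all genes -0.12). The egress receptor S1pr1 (-5.07 ± 0.88), its activator Klf2 (-3.82 ± 0.46), Eomes (-2.09 ± 0.58), which is also among the NK cell markers, and the interleukin receptor Il7r (-2.09 ± 0.42) fell. Tbx21, the gene of T-bet, rose by 2.0 ± 0.57 and was at 110.1 to 579 TPM against 63.9 to 95.8 TPM. In tumor against spleen Klf2 (-5.83 ± 0.46), S1pr1 (-5.12 ± 0.88), Il7r (-4.32 ± 0.42) and Cx3cr1 (-2.19 ± 0.54) fell and Gzmb rose (2.96 ± 0.55), where 2.82% of all tested genes were lower and 3.42% higher. Tumor and skin thus both had S1pr1 and Klf2 lower than spleen, while Itgae and Smad7 were lower in tumor and higher in skin. In the day 12 lymph node, 4 of the 8 were higher than in naive cells (Gzmb, Tbx21, Cx3cr1 and Eomes) and Il7r was lower (5.95% and 5.14% of all tested genes).

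**Figure D4:**
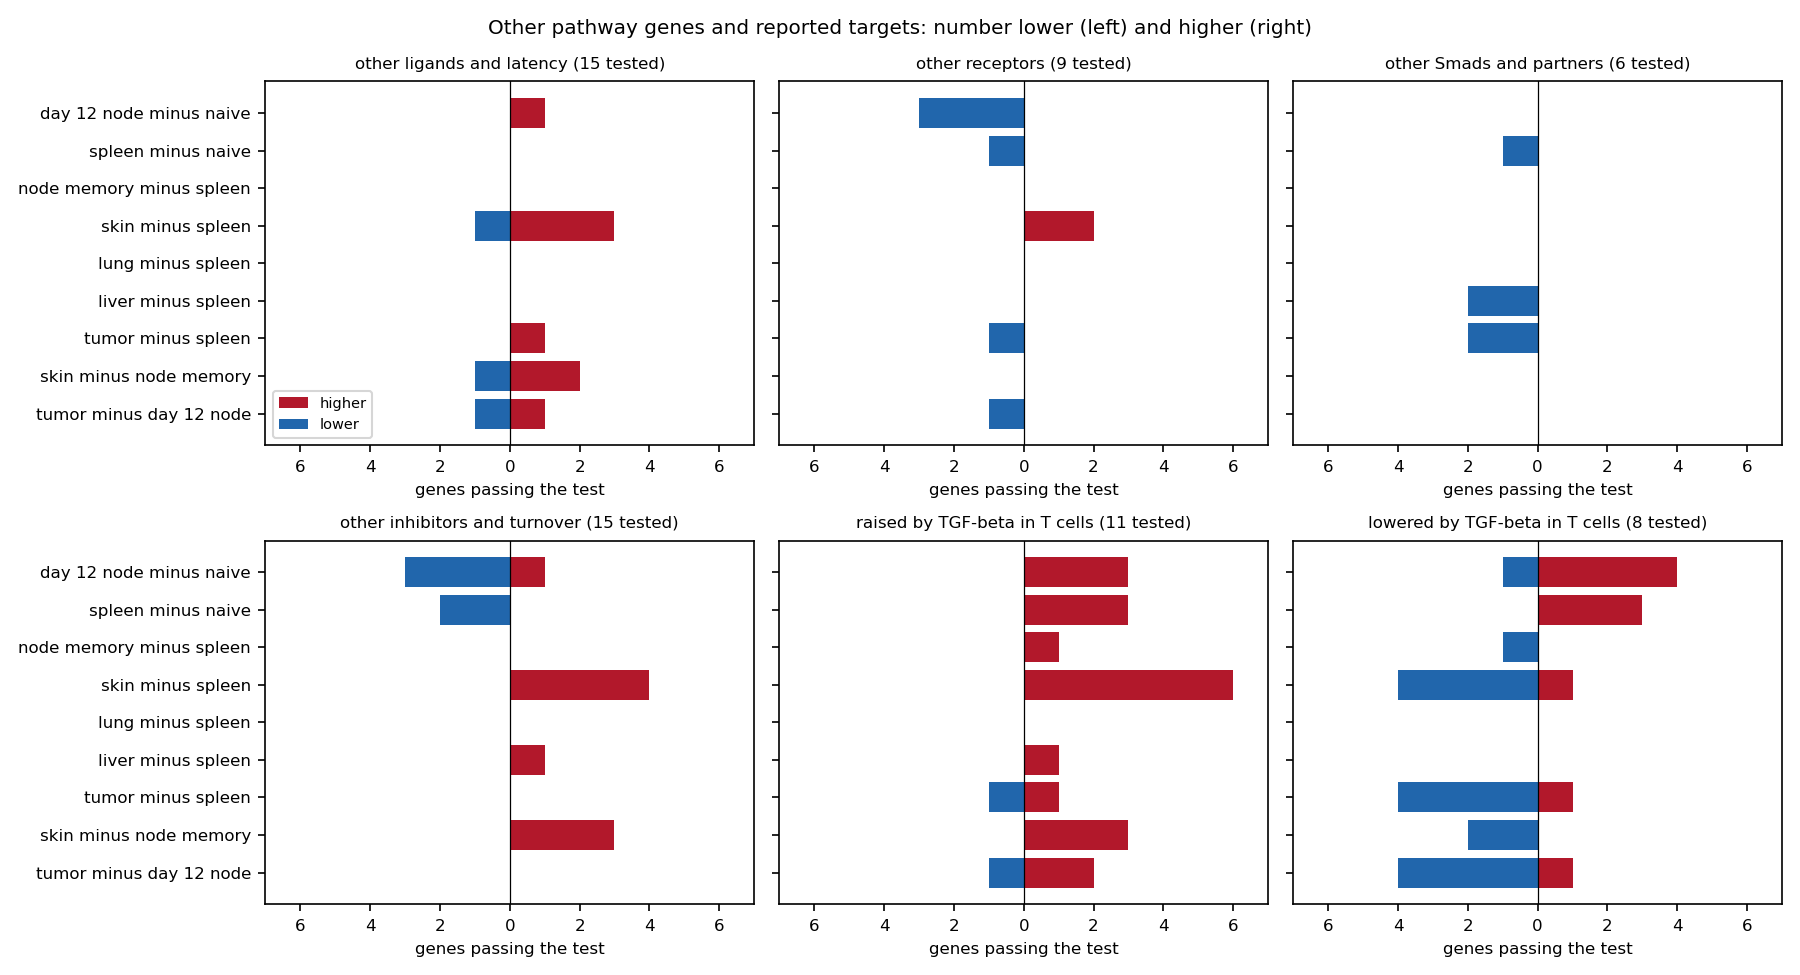
Number of genes of each list that passed the test in each comparison, lower to the left and higher to the right; the 4 pathway lists hold 45 tested genes, and the lists of genes raised and lowered by TGF-beta in T cells 11 and 8. Skin against spleen shows the longest bar in the raised list, 6 of 11, and 0 of the genes in any list passed in lung against spleen.

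Genes with the most similar pattern over the 8 groups were sought for each of the 8 genes that passed the F test, by the root mean square difference of centred group means among 7256 genes. For Tgif1 they were Nfkbia, an inhibitor of NF-kappaB (0.242 log2 units), Coq10b (0.292) and the immediate early gene Zfp36 (0.316), where the median of the genes searched was 1.66. For Smad7 they were Dnajb4 (0.316), Tiparp (0.325) and Vgll4 (0.349), for Skil Smox (0.320), Pim3 (0.398) and Ptp4a1 (0.454), and for Ski Sgms1 (0.213), Dse (0.280) and Arntl (0.323). Spsb1 had no near neighbour among the genes searched, the nearest being Trp53inp1 (0.789), Slc38a2 (0.797) and Snora28 (0.800), against a median of 1.5. Spsb1 was low in most groups, and genes of low overall mean were not searched, so a nearer neighbour among them would have been missed. For the receptors, whose patterns were flatter, the nearest were Tmem259 (0.076), Taf1a (0.117) and Fam3a (0.118) for Tgfbr1, and Efr3a (0.179), Chmp1a (0.186) and Msl2 (0.188) for Tgfbr2. Smad3 lay nearest to Chd4 (0.280), Chd1 (0.308) and Bcl10 (0.312). These distances describe 8 group means from the same libraries and carry no test.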

How the data were processed

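RNA sequencing of 32 libraries in 8 groups of 4 was used. Reads were aligned with Bowtie to mm10, per the submitters' processing notes; the version, annotation and counting step are not stated in the labels used here. The deposited table holds natural log values of TPM + 1 as the authors made them, and not counts: the TPM converted back from it add up to 999999.06 to 1000000.8 per library. The branch of the design for normalized values was therefore used.

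TPM + 1 was converted to log2. A minimum of 1 TPM in 4 libraries left 19738 genes, which entered 1 limma 3.58.1 fit (R 4.3.3) of all 8 groups with a variance trend and 24 residual degrees of freedom. P-values of each of 9 comparisons, and of a moderated F test, were adjusted by Benjamini-Hochberg over all tested genes, and genes under 0.05 were called. The fit was tested on simulated data, drawn as independent normal values with 1 SD per gene for all groups. Residual SDs here ran from 0.303 log2 units in the day 12 lymph node to 1.33 in liver. The simulation therefore cannot show how the calls behave under such unequal spread. Python 3.11.15 with NumPy 2.4.6, pandas 2.3.3 and Matplotlib 3.10.9 served for the rest.

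The 10 genes, the lists and the comparisons were chosen with earlier results of these data known. All 10 are named, with up to 4 called genes per further list and comparison by size of change, of which a part is printed, and 3 nearest genes for each gene called by the F test. Marker lists of T cells and of other cell types were summed per library. Promoters and coordinates are from RefSeq, GRCm38.p6. No 2 libraries were identical.

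Alternatives were no filter, a filter of 5 TPM, a pseudocount of 0.1, only the 2 groups compared, weights per group, a replicate block, T cell identity as covariate, quantile normalization, no libraries under 0.5 of the median T cell identity sum (29072 TPM), and each library left out.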

Additional observations from a re-analysis of the deposited data

Results flagged for a closer look

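In 4 of the 80 combinations of gene and group, 1 of the 4 libraries stood apart: its gap to the nearest of the others, on the log2(TPM + 1) scale, took up more of the group's range than Dixon's 95% limit for 4 libraries allows. Chance gives about 1 in 20 such groups. Tgfb1 was 30.64 TPM in lymph node memory replicate 4 and 39.54 to 41.33 TPM in the other libraries. Smad2 was 5.62 TPM in liver replicate 3 and 25.42 to 28.11 TPM in the others. Smad3 was 2.06 TPM in skin replicate 4 and 5.31 to 6.19 TPM in the others. Tgif1 was 338.76 TPM in liver replicate 1 and 87.96 to 109.94 TPM in the others. Skin replicate 4 and liver replicate 3 are among the 6 libraries with a low summed level of T cell genes.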

How the results depend on the processing

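Every result was refitted under alternative settings, and of 1930 values of single genes 1717 kept both direction and side of the threshold, 82 changed sign without passing in either fit, 72 no longer passed, 58 passed newly and 1 changed sign after being called. That last one was Tgfbr2 in liver against spleen, at 0.024 without the libraries of low T cell level. The number of the 10 genes that passed moved as follows. In the day 12 lymph node against naive cells (2 genes) it was 1 with a pseudocount of 0.1, 7 with only those 2 groups fitted and 8 with weights per group. Weights gave 2 and the removal of low T cell libraries 3 in spleen against naive cells (1 gene). That removal gave 3 in lymph node memory against spleen (0 genes). Liver against spleen (2 genes) gave 1 without a filter, 0 with only those 2 groups, 0 with weights and 1 with T cell level as a covariate, and 1 to 3 when a library was left out. Tumor against spleen (2 genes) gave 1 without a filter, 1 with a pseudocount of 0.1, 1 with only those 2 groups, 3 with weights, without low T cell libraries or after quantile normalization, and 0 to 1 when a library was left out. Skin against lymph node memory (4 genes) gave 2 with a pseudocount of 0.1, 2 with only those 2 groups and 2 to 4 when a library was left out, 2 being without skin replicate 1. Tumor against the day 12 lymph node (1 gene) gave 5 with only those 2 groups, 5 with weights, 2 without low T cell libraries, 3 after quantile normalization, and 0 to 1 when a library was left out, 0 being without tumor replicate 2. Skin against spleen (4 genes) gave 3 with only those 2 groups, where Smad7 was lost, 5 with T cell level as a covariate, 6 without low T cell libraries or after quantile normalization and 4 to 6 when a library was left out; the F test gave 6 to 9 when a library was left out. Settings that changed only the estimate of the spread changed the calls for all genes too: with weights 56.7% of all tested genes passed in the day 12 lymph node against naive cells and 0.932% in liver against spleen. Quantile normalization moved the median change of all tested genes in liver against spleen from -0.53 to -0.08 and in skin against lymph node memory from -0.25 to -0.04.

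The replicate numbers were not treated as pairs. In 0 of the 9 comparisons did all 4 same-numbered pairs deviate together with a correlation above 0.1. Single pairs ranged from -0.393 (replicate 1, tumor against spleen) to 0.467 (replicate 4, skin against lymph node memory). Replicate 4 also gave 0.417 in liver and 0.414 in lung against spleen. This rule cannot show whether same-numbered samples shared an animal or a batch. Replicate 4 had the lowest T cell identity sum in lymph node memory (18425 TPM), spleen (12571), skin (5630), liver (3475) and tumor (14457). In naive cells, the day 12 lymph node and lung it did not. It also had the most genes above 0 in lymph node memory, spleen, skin, lung and liver. What the libraries numbered 4 have in common was not tested. With the replicate block, 2 genes passed in the day 12 lymph node against naive cells, 1 in spleen against naive cells, 4 in skin against spleen, 2 in liver and 2 in tumor against spleen, 4 in skin against lymph node memory, 1 in tumor against the day 12 lymph node and 7 in the F test. The depth of each library is unknown, so a value listed at 0, such as Tgfbr2 in liver replicate 2, has no limit of detection here. Liver replicate 2 had 10732 genes above 0, the fewest of the 32 libraries. The next lowest count was 17321 in liver replicate 1, and the highest was 34211 in skin replicate 4.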
